A study of Homo sapiens with 12 samples.

Results

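The genes described here encode transcription factors of the developmental and nuclear receptor families, in the human melanoma line A375, whose BRAF kinase is activated by mutation. They are the genes whose symbols, without a hyphen, begin with the family names HOX, SOX, FOX, PAX, KLF, MEIS, PBX, LHX, LMO, POU, GATA, RUNX, ZEB, NFI, MEF2, TEAD, TCF, BHLH, HES or HEY, with sine oculis homeobox names such as SIX4, or with the names of nuclear receptors (NR followed by a number, RAR, RXR, ROR). This choice by name gave 136 of the 8579 genes in the deposited count table, and all 136 passed the filter on low counts. All 12 libraries come from cells harvested after 72 hours: UNTREATED (neither agent, with DMSO as the treatment label), SEL201 at 2.5 µM, OTX015 at 50 nM, and COMBO, which received both agents at these doses. SEL201 inhibits MNK1 and MNK2, kinases whose substrate is the cap-binding translation factor eIF4E. OTX015 inhibits the BET proteins, which read acetylated histones at promoters and enhancers. Each of the 4 groups has 3 libraries of polyadenylated RNA from this 1 cell line, and the labels do not say whether the 3 are separate cultures. The p-values therefore describe only how far these libraries spread, and that spread may be technical.

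Developmental transcription factors bind short DNA motifs through a homeodomain, forkhead, HMG box, zinc finger, basic helix-loop-helix (bHLH) or paired domain and set which genes a lineage uses. Nuclear receptors are transcription factors that respond to small lipid-soluble ligands such as retinoic acid, or have no known ligand and are called orphan receptors. Melanocytes descend from the neural crest, and melanoma cells often keep neural crest factors such as PAX3, SOX2, SOX9, FOXD3 and ZEB2 in use, together with a HOX code that records position along the body axis.

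Levels below are in CPM, the reads of a gene scaled to its library's total over these 8579 genes, adjusted by edgeR's TMM scaling factors (0.9905 to 1.005). Changes are log2 differences between group means with their standard errors (SE), tested with edgeR over all 8579 genes at an adjusted p under 0.05. Library totals over these genes ran from 15146071 to 24111541, and the members' lowest count in any library was 36 (TCF15). Because the samples are bulk RNA, fewer cells that express a gene and less RNA per cell cannot be told apart. Of the melanocyte markers, 10 of 14 were measured, and their summed level was 1306 to 1397 CPM in the UNTREATED libraries, 979 to 996 under SEL201, 870 to 910 under OTX015 and 816 to 840 under COMBO. PMEL and MLANA, which encode pigment cell antigens, stood at 4.87 ± 0.446 and 4.19 ± 0.908 CPM in UNTREATED (SD, n = 3), and SOX10, TYR and DCT were not analysed here. With COMBO, 3 of the 10 rose, PAX3 among them (0.218), and 5 fell, MITF among them (-0.174). The genes with the most reads weigh most in the sum, so it does not describe each marker. The 5 of 8 fibroblast markers that were measured had sums of 138 to 184 CPM in UNTREATED, 118 to 136 with SEL201, 98.9 to 105 with OTX015 and 86.4 to 93.4 with both, and with COMBO DCN, LUM, COL1A1 and PDGFRB fell and PDGFRA rose. Of 7 keratinocyte markers only KRT14 was measured (155 to 176 CPM in UNTREATED, 77.7 to 88.5 with SEL201, 52.0 to 62.2 with OTX015, 36.0 to 42.0 with both), of 5 endothelial markers only KDR (81.0 to 142, 66.1 to 109, 70.6 to 121 and 101 to 157 CPM in the same order), and of 6 blood markers none. The part of these shifts in the changes below was not tested.

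The members fell more often than they rose with each treatment. With SEL201, 29 members fell and 11 rose, which is 21.3% and 8.09% of the 136, where 11.1% and 10.1% of all genes tested fell and rose. With OTX015, 67 fell and 19 rose, or 49.3% and 14% of the members, against 24.7% and 23.3% of all genes. With COMBO, 72 fell and 22 rose, or 52.9% and 16.2%, against 29.6% and 28.3% of all genes. The counts of smaller families and lists with COMBO below are to be read beside these same shares of all genes. The median log2 change of the members was -0.122 with SEL201, -0.234 with OTX015 and -0.34 with COMBO, where the medians of all genes were 0, 0.002 and 0.002. The median size of the change, without regard to sign, was 0.46 for the members with COMBO and 0.257 for all genes. At least 2-fold changes past the threshold were seen in 16 members that fell and 5 that rose with COMBO, where 6.81% and 2.03% of all genes did so. With OTX015 they were seen in 8 and 3 members (4.36% and 0.863% of all genes), and with SEL201 in none (1.26% and 0.14% of all genes). With the replicate number as a block in the model, 51 members fell and 19 rose with SEL201, while the shares of all genes were also larger, at 19.1% and 18%.

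**Figure D1:**
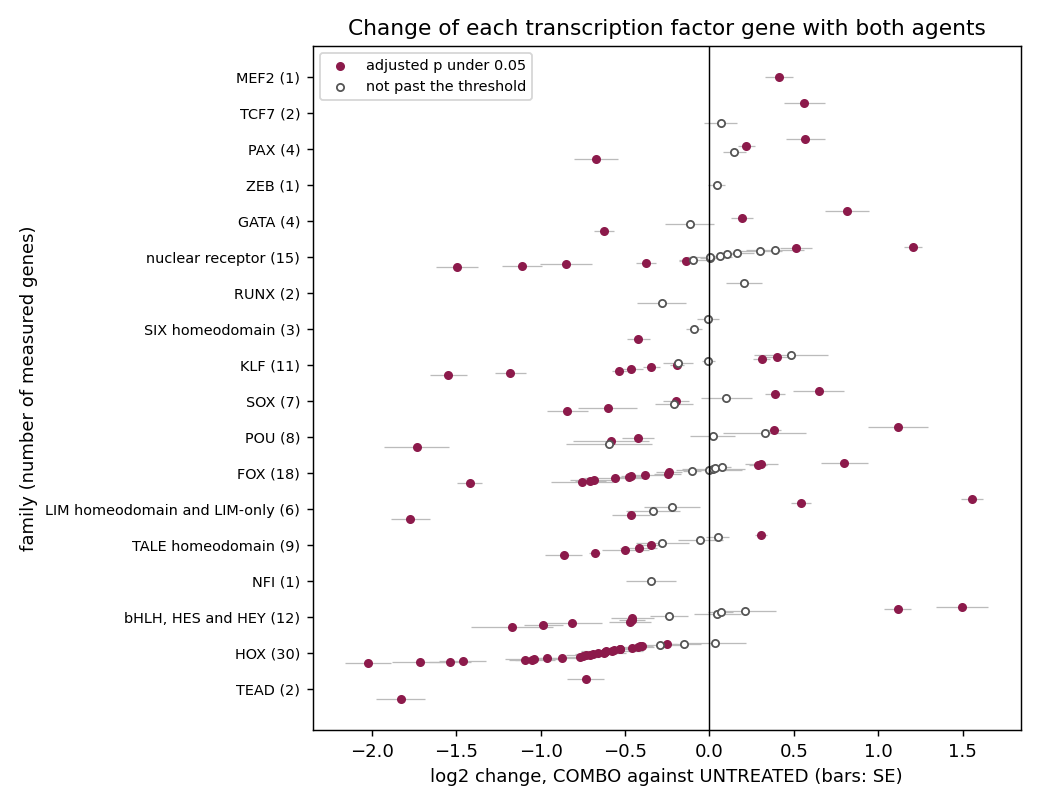
Log2 change of each of the 136 genes between COMBO and UNTREATED (x axis, bars are SE), by family (y axis, with the number of measured genes). Filled points passed the threshold; 72 lie to the left of 0 and 22 to the right, and 27 of the 30 HOX genes are filled points on the left.

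Promoter sequences from RefSeq (GRCh38.p14, another build than the hg19 named for the files) were at hand for 97 of the 136 members. The 250 bases before the start site are shown for the members with the largest changes with COMBO among these 97: HEY2 (chr6:125749382-125749631, plus strand) and RORB (chr9:74497085-74497334, plus strand), which rose, and TEAD2 (chr19:49362417-49362666, minus strand) and LHX8 (chr1:75128184-75128433, plus strand), which fell. Capitals mark GC boxes, searched as GGGCGG on both strands (CCGCCC on the strand shown), the core of the motif of the SP and KLF zinc finger factors.
HEY2: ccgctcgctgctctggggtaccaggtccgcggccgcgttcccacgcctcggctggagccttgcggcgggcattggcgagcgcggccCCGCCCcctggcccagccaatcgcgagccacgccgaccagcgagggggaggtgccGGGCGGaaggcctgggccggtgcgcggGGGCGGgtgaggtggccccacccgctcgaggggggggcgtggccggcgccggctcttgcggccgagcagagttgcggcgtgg
RORB: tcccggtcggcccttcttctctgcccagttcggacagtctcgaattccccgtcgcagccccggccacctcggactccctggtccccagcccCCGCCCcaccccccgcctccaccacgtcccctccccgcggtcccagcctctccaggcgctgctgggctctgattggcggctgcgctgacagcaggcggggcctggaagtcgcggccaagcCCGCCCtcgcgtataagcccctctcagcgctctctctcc
TEAD2: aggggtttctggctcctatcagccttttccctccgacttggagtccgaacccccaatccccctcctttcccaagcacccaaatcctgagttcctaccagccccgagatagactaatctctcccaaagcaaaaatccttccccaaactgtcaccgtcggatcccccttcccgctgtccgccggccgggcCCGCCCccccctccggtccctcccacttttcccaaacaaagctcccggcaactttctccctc
LHX8: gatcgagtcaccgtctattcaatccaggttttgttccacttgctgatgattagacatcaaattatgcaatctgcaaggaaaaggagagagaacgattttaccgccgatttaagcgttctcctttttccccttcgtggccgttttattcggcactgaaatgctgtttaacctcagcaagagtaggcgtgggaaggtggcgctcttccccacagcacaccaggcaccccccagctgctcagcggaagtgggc
The window of HEY2 holds 3 GC boxes and 35 CpG dinucleotides, that of RORB 2 and 23, that of TEAD2 1 and 12, and that of LHX8 none and 12. A GC box was present in 15 of 20 members that rose with COMBO (75%), in 28 of 46 that fell (60.9%) and in 17 of 31 that did not pass the test (54.8%). The same search found it in 64.6% of the 6095 table genes with a promoter and in 42.3% of all 27303 promoters, so the share among members that fell lay near that of the table. These matches are a description of the windows.

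HOX genes, which encode homeodomain proteins that specify position along the body axis, made up the largest family, with 9 genes of cluster A, 9 of B, 8 of C and 4 of D. With COMBO, 27 of the 30 fell, with log2 changes from -2.02 to -0.25, and the median over all 30 was -0.645. None rose by edgeR, by DESeq2 or at an unadjusted p under 0.05. With OTX015, 27 fell as well (median -0.426), and with SEL201 12 fell (median -0.228), or 21 with the replicate block. By cluster, COMBO lowered 6 of 9 HOXA genes and all 9 HOXB, 8 HOXC and 4 HOXD genes measured. The members outside the HOX family also fell more often than they rose, with 45 of 106 lower (42.5%) and 22 higher with COMBO. Over the alternative analyses, the count of HOX genes that fell lay between 26 and 29 for COMBO and 23 and 27 for OTX015. For SEL201 it lay between 9 and 21, and no HOX gene rose in any alternative. Among these alternatives, the share of all genes was counted only for SEL201 with the replicate block.

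HOXC11, a posterior gene of cluster C, had the largest fall of any member. Its levels were 43.7, 51.1 and 53.5 CPM in UNTREATED, 28.5, 32.6 and 22.2 in SEL201, 15.4, 17.7 and 15.1 in OTX015 and 11.6, 11.7 and 13.3 in COMBO. The 4 groups did not overlap, and each treatment lay below UNTREATED in every library. The log2 change was -0.83 ± 0.13 (SE) with SEL201 (adjusted p = 0.000434), -1.62 ± 0.13 with OTX015 (adjusted p = 3.25e-07) and -2.02 ± 0.14 with COMBO, a 4.06-fold difference (adjusted p = 2.12e-08). HOXB8, from the middle of cluster B, was at 28.2, 28.1 and 24 CPM in UNTREATED, 13.8, 16.7 and 12.3 in SEL201, 15.4, 16.8 and 10.9 in OTX015 and 9.22, 8.14 and 6.95 in COMBO. The SEL201 and OTX015 libraries overlapped each other, and the COMBO libraries lay below all others. HOXB8 fell with either agent (log2 change -0.90 with SEL201 and -0.90 with OTX015) and was 3.28-fold lower with COMBO (adjusted p = 8.42e-07). Its neighbour HOXB9 read 102, 92 and 91.3 CPM in UNTREATED, 80.7, 79.7 and 58.2 in SEL201, 52, 57.4 and 43.2 in OTX015 and 32.4, 33.9 and 32.1 in COMBO. The COMBO libraries were again the lowest, and HOXB9 fell by 2.9-fold with COMBO (log2 change -1.54 ± 0.12, adjusted p = 1.24e-07).

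HOXA11, which acts in limb and uterus development, fell with OTX015 (-1.28 ± 0.14, adjusted p = 3.88e-06) and COMBO (-1.46 ± 0.14, adjusted p = 6e-07), from 12.6, 11 and 11.9 CPM in UNTREATED to 4.01, 4.3 and 4.63 in COMBO. HOXD13, a gene of digit patterning, was at 160.3, 157 and 156 CPM in UNTREATED, 124, 131 and 126 in SEL201, 94.7, 94.6 and 96.8 in OTX015 and 74.4, 68.7 and 79.1 in COMBO, with no overlap between any of the groups. It fell by 2.13-fold with COMBO (adjusted p = 1.5e-09). HOXC10 showed the same order with a small spread: 384, 387 and 365 CPM in UNTREATED, 329.6, 337 and 310.5 in SEL201, 271, 273 and 271 in OTX015 and 234, 229 and 214 in COMBO. All 3 COMBO libraries lay below all 3 OTX015 libraries, and these lay below the SEL201 and UNTREATED libraries. HOXC10 fell by 1.68-fold with COMBO (adjusted p = 6.64e-09). HOXA2 (-0.29, adjusted p = 0.0881, or 0.0371 with the replicate block) and HOXA13 (0.03, adjusted p = 0.903) were among the 3 genes that did not pass the test with COMBO. HOXA13 had 11.6, 12.4 and 13.6 CPM in UNTREATED and 13, 14.4 and 10.8 in COMBO, and these libraries overlapped. The table also holds 5 noncoding RNAs named after HOX clusters, such as antisense transcripts, and all 5 fell with COMBO (-0.724 to -0.545). The strand setting of the counting is not given in the sources used here, so reads of overlapping HOX genes and their antisense transcripts may not be told apart.

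Several SEL201 calls of HOX genes were lost in fits that left out 1 library, which hold fewer samples. Among them were those of HOXA3, HOXA11, HOXB6, HOXB9, HOXC9 and HOXC13. HOXB9 (-0.38 with SEL201, adjusted p = 0.0325) did not pass without UNTREATED replicate 1 (0.118), UNTREATED replicate 2 (0.0594) or SEL201 replicate 3 (log2 change -0.248, adjusted p = 0.109). HOXA11 (-0.39, adjusted p = 0.046) did not pass without any 1 of the 6 libraries compared (0.0516 to 0.15), with DESeq2 (0.0556), or in a fit of only the compared groups (0.062). Its log2 change stayed between -0.464 and -0.34 in the fits without 1 library. The OTX015 calls of HOXA5, HOXB2, HOXB5 and HOXC5, and the COMBO call of HOXC5, were also lost in some such fits. HOXB5 with OTX015 (-0.35, adjusted p = 0.0413) did not pass without any 1 of the 6 libraries compared (0.0599 to 0.103).

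**Figure D2:**
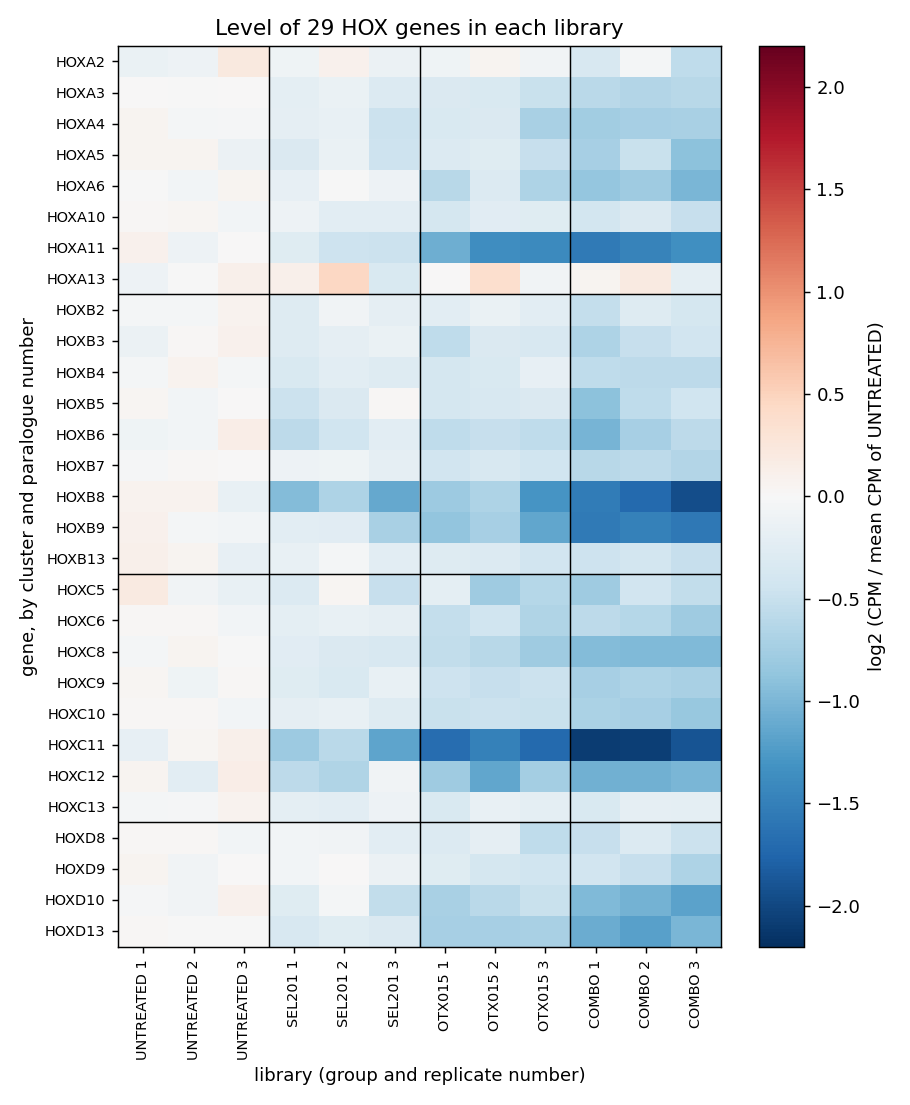
Level of 29 of the HOX genes (rows, ordered by cluster A to D and paralogue number) in each of the 12 libraries (columns), as log2 of CPM over the mean CPM of UNTREATED. Blue cells are lower; the COMBO columns are the darkest for most rows, with HOXC11 at a log2 change of -2.02, while HOXA2 and HOXA13 stay pale.

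The TALE homeodomain proteins PBX and MEIS bind DNA together with HOX proteins. Of the 9 members with these names, 5 fell and 1 rose with COMBO (55.6% and 11.1%, against 29.6% and 28.3% of all genes). PBX2 fell with each treatment and had little spread: 469.6, 446 and 451 CPM in UNTREATED, 403, 405 and 398 in SEL201, 329, 332 and 324 in OTX015 and 286, 286 and 282 in COMBO. Its 4 groups did not overlap, and the log2 change with COMBO was -0.68 ± 0.033 (adjusted p = 1.08e-09). PBX3 rose, by 0.30 ± 0.037 with COMBO (adjusted p = 7.09e-06), from 226, 219.9 and 214 CPM in UNTREATED to 274, 265 and 274 in COMBO. PBX4 (-0.28, adjusted p = 0.141) did not pass the test, except without UNTREATED replicate 3 (-0.422, adjusted p = 0.0255). MEIS3 fell from 33.3, 28.2 and 27.9 CPM in UNTREATED to 16.5, 17.8 and 14.8 in COMBO, and MEIS2 fell as well (-0.345). MEIS3P1 (-0.42) and MEIS3P2 (-0.50), near-identical copies of MEIS3, also fell, and reads may be split among the 3. Of 6 measured genes on a list of 17 partners of homeodomain, LIM and RUNX factors, 4 fell and 1 rose with COMBO: TGIF2, a TALE repressor (-1.41 ± 0.058), and TLE2, a Groucho corepressor (-1.39 ± 0.24), fell, while PKNOX2, another PBX partner, rose by 0.67 ± 0.11. EYA4, a cofactor of sine oculis homeodomain proteins, also fell (-0.24). Among the 3 sine oculis homeodomain genes, SIX4 fell (-0.42, adjusted p = 9.52e-05), and SIX5 (-0.01) did not pass.

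LMO2, a LIM-only bridging protein of blood progenitor complexes that binds no DNA itself, had the largest rise. Its levels were 46.9, 50.1 and 45.6 CPM in UNTREATED, 60.8, 67.6 and 70.2 in SEL201, 138, 145 and 148 in OTX015 and 138, 146 and 134 in COMBO. The OTX015 and COMBO libraries overlapped each other and lay above all SEL201 libraries, which lay above UNTREATED. LMO2 was 3.02-fold higher with OTX015 (log2 change 1.60 ± 0.066, adjusted p = 8.83e-10), 2.94-fold with COMBO (adjusted p = 2.64e-10) and 1.39-fold with SEL201 (adjusted p = 0.000195). LMO4, the related LIM-only protein of neural crest and epithelia, also rose, to 440.4, 394 and 396 CPM in COMBO from 305, 274 and 266 in UNTREATED (0.54 ± 0.057, adjusted p = 1.7e-06). LMO4 rose with SEL201 as well (0.24, adjusted p = 0.00852). The LIM homeodomain gene LHX8, a factor of forebrain cholinergic neurons, went the other way: 14, 13.2 and 13.6 CPM in UNTREATED, 11.8, 11.6 and 11.8 in SEL201, 5.17, 5.34 and 5.29 in OTX015 and 3.71, 4.16 and 4.1 in COMBO. LHX8 fell by 2.58-fold with OTX015 (adjusted p = 3.02e-07) and 3.41-fold with COMBO (adjusted p = 1.49e-08), and its SEL201 value (-0.21, adjusted p = 0.179) did not pass. LHX6 also fell with COMBO (-0.47).

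Of the 8 POU genes, 3 fell and 2 rose with COMBO (37.5% and 25%, against 29.6% and 28.3% of all genes). POU2F2, the octamer-binding factor known from B cells, was at 25.7, 28.2 and 37.3 CPM in UNTREATED, 18.2, 17.8 and 22.7 in SEL201, 10.7, 10.3 and 12.4 in OTX015 and 7.07, 8.32 and 12.4 in COMBO. UNTREATED lay above all treated libraries, and OTX015 and COMBO overlapped. It fell by 2.72-fold with OTX015 (adjusted p = 2.59e-05) and 3.33-fold with COMBO (adjusted p = 3.07e-06). Its fall with SEL201 (-0.64, adjusted p = 0.023) did not pass without UNTREATED replicate 3 (0.0987), SEL201 replicate 1 (0.0848) or SEL201 replicate 2 (0.0844). POU3F1, which drives myelination in Schwann cells, another neural crest lineage, rose from 9.31, 8.63 and 6.4 CPM in UNTREATED to 16.8, 19.9 and 16.9 in OTX015 and 18.6, 16.7 and 17.5 in COMBO. Both groups lay above UNTREATED, with log2 changes of 1.135 ± 0.18 (adjusted p = 0.000135) and 1.12 ± 0.18 (adjusted p = 0.000101). POU3F1 did not pass with SEL201 (0.46, adjusted p = 0.0936, or 0.0154 with the replicate block). POU3F2 (BRN2), a factor linked to the invasive state of melanoma cells, rose with all 3 treatments: 311, 288 and 304 CPM in UNTREATED, 362, 359 and 364 in SEL201, 365, 366 and 367 in OTX015 and 388, 379 and 410.2 in COMBO. Each treated library lay above each UNTREATED library, and the log2 changes were 0.265, 0.28 and 0.38 (COMBO, adjusted p = 1.46e-06).

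The members on the list of 21 melanocyte and neural crest genes rose with COMBO or did not pass. SOX2, a factor of neural progenitors and stem cells, was at 70.2, 77 and 49.2 CPM in UNTREATED, 78.7, 79.3 and 61.6 in SEL201, 106, 114 and 86.9 in OTX015 and 107, 108 and 91.9 in COMBO. The library numbered 3 was the lowest of its group in all 4 groups. SOX2 rose by 1.56-fold with OTX015 (adjusted p = 0.00269) and 1.56-fold with COMBO (adjusted p = 0.00191), while the SEL201 value (0.16, adjusted p = 0.505) did not pass, except with the replicate block (0.0318). FOXD3, which maintains neural crest progenitors, read 28.4, 28.8 and 18.2 CPM in UNTREATED, 32.9, 37.1 and 31.5 in SEL201, 35.9, 34.7 and 35.5 in OTX015 and 41.7, 47.6 and 42 in COMBO. UNTREATED replicate 3 was the lowest library, and all treated libraries lay above all UNTREATED libraries. FOXD3 rose by 0.80 ± 0.14 with COMBO (adjusted p = 0.000196) and 0.49 with OTX015 (adjusted p = 0.00964). The SEL201 rise (0.43, adjusted p = 0.0426) was 0.245 and not past the threshold without UNTREATED replicate 3 (0.0954), nor without SEL201 replicate 1 (0.0808) or 2 (0.145). PAX3, which acts upstream of the melanocyte factor MITF, rose by 1.16-fold with COMBO (adjusted p = 0.00184), from 127, 137 and 127 CPM in UNTREATED to 148, 159 and 147 in COMBO. Its rises with SEL201 (0.16, adjusted p = 0.0324) and OTX015 (0.17, 0.0128) did not pass in some fits that left out 1 library: UNTREATED replicate 1 (0.109 and 0.0512), UNTREATED replicate 3 or SEL201 replicate 1 or 2 for SEL201 (0.0934, 0.0907 and 0.0886), and OTX015 replicate 2 for OTX015 (0.0545). SOX9 (0.10, adjusted p = 0.603) and ZEB2 (0.04, adjusted p = 0.48), both of melanocyte differentiation, did not pass with COMBO. ZEB2 libraries ranged from 180 to 209 CPM over all 12.

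Over the whole list, 13 of 21 genes were measured, and 6 rose and 2 fell with COMBO; the 2 that fell were MITF (-0.17), the master factor of melanocytes, and NGFR (-0.73), a neural crest receptor. SNAI2, a neural crest repressor of the SNAIL family, rose by 1.49 ± 0.19 and TWIST1, a mesenchymal bHLH factor, by 0.65 ± 0.056. On the list of 17 epithelial and mesenchymal genes that ZEB factors act beside, 3 of 6 measured genes rose and 2 fell with COMBO. GRHL1, an epithelial factor, rose by 0.97 ± 0.13, while CLDN1, a tight junction protein (-1.44 ± 0.12), and TWIST2 (-0.855 ± 0.079) fell. Other SOX and PAX members moved apart. SOX18, a vascular factor, fell by 1.79-fold with COMBO (adjusted p = 4e-05), SOX6 fell as well (-0.60), and SOX13 rose by 0.39 (adjusted p = 8.89e-05). PAX6, the eye and brain factor, rose with COMBO from 13.2, 12 and 12.8 CPM in UNTREATED to 19.1, 19.8 and 17.3 (0.57 ± 0.115, adjusted p = 0.000712), with values under each single agent that did not pass (0.29 with SEL201 and 0.105 with OTX015). PAX8, a thyroid and kidney factor, fell with COMBO (-0.67, adjusted p = 0.000431).

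**Figure D3:**
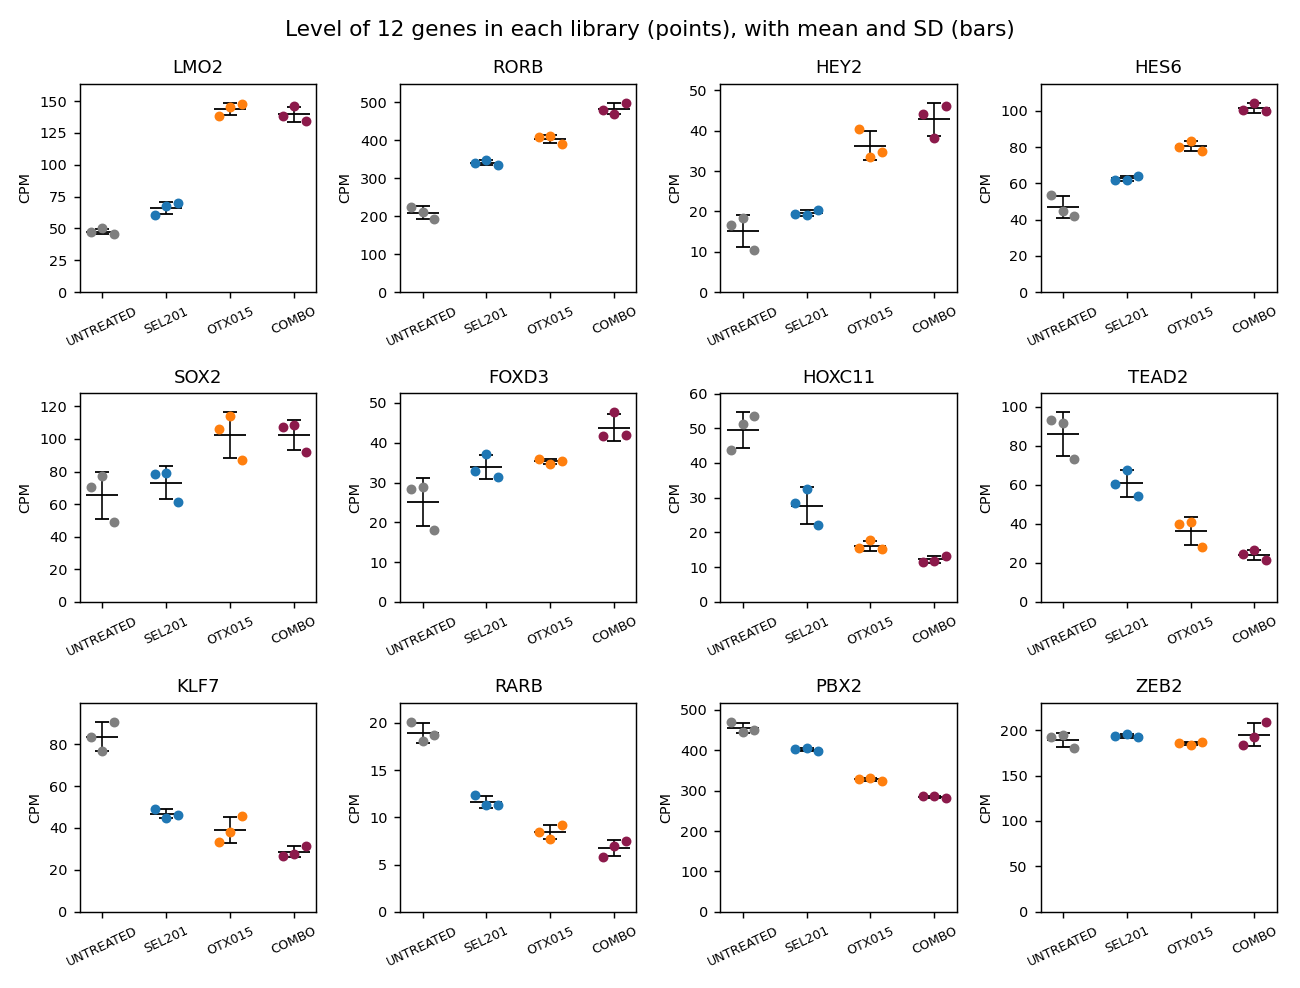
Level in CPM of 12 of the genes in each library (points), by group, with the group mean and SD as bars; every axis starts at 0. The upper 6 rose with COMBO (LMO2 from 45.6 to 50.1 CPM up to 134 to 146), the next 5 fell (TEAD2 from 73.1 to 93.2 down to 21.4 to 26.4), and ZEB2 stayed between 180 and 209.

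The forkhead family had 18 measured genes, of which 10 fell and 3 rose with COMBO (55.6% and 16.7%, against 29.6% and 28.3% of all genes). FOXF2, a factor of mesenchyme and palate, fell with all treatments: 134, 143 and 150.3 CPM in UNTREATED, 91, 102 and 93.4 in SEL201, 69.4, 72.7 and 64.7 in OTX015 and 49.5, 54.5 and 56 in COMBO. The 4 groups did not overlap. FOXF2 was 2.68-fold lower with COMBO (log2 change -1.42 ± 0.073, adjusted p = 1.68e-09), 2.07-fold with OTX015 and 1.49-fold with SEL201 (adjusted p = 7.59e-05). FOXC2, of vessels and mesenchyme, also fell (-0.705), while its paralogue FOXC1 rose (0.29, adjusted p = 0.000427), from 286, 270.5 and 250.5 CPM in UNTREATED to 316, 339 and 329.5 in COMBO. FOXA1, an endodermal pioneer factor, fell with COMBO (-0.68). FOXP1 fell with COMBO (-0.755 ± 0.18, adjusted p = 0.00278), and its fall with SEL201 (-0.54, adjusted p = 0.0499) failed without any of 5 of the 6 libraries compared, all but SEL201 replicate 2 (0.067 to 0.199). Of the FOXO factors, which insulin signalling keeps out of the nucleus, FOXO4 fell (-0.48) and FOXO1 rose (0.31, adjusted p = 0.0135), though FOXO1 did not pass without COMBO replicate 3 (0.218, adjusted p = 0.0712). FOXO3 (0.07) did not pass. FOXO3B (-0.25, adjusted p = 0.0155) is a near-identical copy of it, so its counts are uncertain.

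Of 11 KLF zinc finger genes, 6 fell and 2 rose with COMBO (54.5% and 18.2%, against 29.6% and 28.3% of all genes). KLF7, which promotes axon growth, read 83.4, 76.7 and 90.5 CPM in UNTREATED, 49, 45 and 46.3 in SEL201, 33.1, 37.9 and 45.6 in OTX015 and 26.6, 27.7 and 31.6 in COMBO. UNTREATED lay above all treated libraries, and COMBO below all others. It fell by 1.78-fold with SEL201 (adjusted p = 0.000105), 2.15-fold with OTX015 and 2.92-fold with COMBO (adjusted p = 3.72e-08). KLF11, a TGF-beta-induced repressor, fell by 2.27-fold with COMBO (adjusted p = 1.08e-07), from 90, 88.5 and 86.7 CPM in UNTREATED to 40, 42.5 and 34.3. KLF9, a hormone-responsive gene, rose with COMBO (0.40 ± 0.087, adjusted p = 0.00127), and KLF4, a pluripotency and epithelial factor, rose with COMBO (0.31) and SEL201 (0.225, adjusted p = 0.00759). The 4 GATA genes divided as well. GATA6, of endoderm and heart, rose to 25.6, 22.2 and 22.1 CPM in COMBO from 15.1, 14.2 and 10.4 in UNTREATED (1.76-fold, adjusted p = 9.15e-05). GATA2, a factor of blood and vessels, fell from 191, 184 and 189.8 CPM in UNTREATED to 124, 120.3 and 122 (1.54-fold, adjusted p = 6.45e-07). With SEL201, GATA6 rose by 0.51 (adjusted p = 0.0121) but did not pass without SEL201 replicate 2 (0.436, adjusted p = 0.0553), and GATA4 rose by 0.22 (adjusted p = 0.0283) but did not pass without UNTREATED replicate 1 (0.0729), UNTREATED replicate 3 (0.0776) or SEL201 replicate 2 (0.132). GATA3 (-0.12) did not pass with COMBO.

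Among the 15 genes of the nuclear receptor names, 5 fell and 2 rose with COMBO (33.3% and 13.3%, against 29.6% and 28.3% of all genes). The share that fell lay near that of all genes, and the median change was 0.001. RORB, an orphan receptor of retina and brain, rose with every treatment: 225, 210.4 and 193 CPM in UNTREATED, 341, 348 and 334 in SEL201, 409, 411 and 390.3 in OTX015 and 480.5, 470.1 and 499.6 in COMBO. No group overlapped another. Its log2 change was 0.70 ± 0.051 with SEL201 (adjusted p = 9.87e-07), 0.945 ± 0.051 with OTX015 (adjusted p = 8.45e-09) and 1.205 ± 0.051 with COMBO (adjusted p = 2.57e-10). RORA, its relative in clock and cerebellum, had 0.30 with COMBO and did not pass (adjusted p = 0.0651), except with the replicate block (0.0199) or without COMBO replicate 2 (0.036). The other gene of this group that rose was NR6A1, the germ cell nuclear factor, by 0.51 ± 0.093 with COMBO (adjusted p = 0.000296).

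Both measured retinoic acid receptor genes fell with COMBO. RARB, whose own gene is a known target of retinoic acid signalling, read 20.1, 18.1 and 18.7 CPM in UNTREATED, 12.3, 11.3 and 11.3 in SEL201, 8.5, 7.71 and 9.2 in OTX015 and 5.82, 6.98 and 7.48 in COMBO. The 4 groups did not overlap, from UNTREATED as the highest to COMBO as the lowest. RARB was 1.63-fold lower with SEL201 (adjusted p = 0.000858), 2.24-fold with OTX015 (adjusted p = 3.15e-06) and 2.82-fold with COMBO (adjusted p = 1.7e-07). RARA also fell, with a log2 change of -0.38 ± 0.057 with COMBO (adjusted p = 5.71e-05), from 328, 322 and 341 CPM in UNTREATED to 247, 259.7 and 256. RXRG, a heterodimer partner of many receptors, had 0.39 with COMBO, which did not pass (adjusted p = 0.0693), except with the replicate block (0.0128) or without COMBO replicate 2 (0.0313). Of 15 genes of retinoid binding and metabolism, 4 were measured: CYP26B1, which degrades retinoic acid (-1.03 ± 0.090), and LRAT, which stores retinol as esters (-0.25 ± 0.043), fell with COMBO, RDH10, which oxidises retinol, rose by 0.48 ± 0.052, and CRABP2 (0.30) did not pass.

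NR1I3 (CAR), a xenobiotic sensor of liver, fell by 1.99-fold with OTX015 and 2.16-fold with COMBO (adjusted p = 2.06e-06), from 15.7, 17.6 and 17.8 CPM in UNTREATED to 7.41, 7.21 and 9.13 in COMBO. NR2F1 (COUP-TFI), an orphan receptor of neural development, read 80.5, 93.8 and 61.2 CPM in UNTREATED, 52.9, 53.4 and 40.5 in SEL201, 55.4, 62 and 44.7 in OTX015 and 43.5, 46.1 and 41 in COMBO. All treated libraries but OTX015 replicate 2 lay below the lowest UNTREATED library, which was replicate 3. NR2F1 fell, with a log2 change of -0.68 ± 0.15 with SEL201 (adjusted p = 0.00561) and -0.85 ± 0.15 with COMBO (adjusted p = 0.000255); the OTX015 fall (-0.54, adjusted p = 0.00879) did not pass without UNTREATED replicate 2 (0.0532). NR1D1 (REV-ERB), a clock repressor, had 0.00 with COMBO and did not pass, nor did the immediate early receptors NR4A2 (0.00) and NR4A3 (0.16). NR2C2AP (0.10) matches the name pattern but encodes a protein that binds a receptor, not a receptor. Of 13 other nuclear receptors listed, 5 were measured, and THRA, the thyroid hormone receptor, fell (-0.45 ± 0.046) while PPARD (0.26 ± 0.048) and PPARA (0.26), fatty acid receptors, rose with COMBO. Of 17 coregulators listed, 4 were measured: NCOA1, a coactivator, rose (0.43 ± 0.050), PPARGC1B (-0.37) and NCOA2 (-0.16) fell, and PPARGC1A (-0.26) did not pass.

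Of the 12 bHLH, HES and HEY members, 2 rose and 6 fell with COMBO (16.7% and 50%, against 28.3% and 29.6% of all genes). HEY2, a repressor and Notch target of heart and vessels, read 16.6, 18.2 and 10.5 CPM in UNTREATED, 19.4, 19.1 and 20.4 in SEL201, 40.4, 33.6 and 34.8 in OTX015 and 44.2, 38.3 and 46.2 in COMBO. UNTREATED replicate 3 was the lowest library, and the OTX015 and COMBO libraries lay above all others. HEY2 was 2.39-fold higher with OTX015 (adjusted p = 1.63e-05) and 2.82-fold with COMBO (adjusted p = 1.61e-06), and its SEL201 value (0.37, adjusted p = 0.118) did not pass, except with the replicate block (0.0207). HES6, which opposes HES1 in neuronal differentiation, read 53.7, 44.9 and 42 CPM in UNTREATED, 62, 61.8 and 64.3 in SEL201, 80.2, 83.7 and 77.8 in OTX015 and 100.3, 105 and 99.8 in COMBO. Its groups did not overlap. HES6 rose by 1.34-fold with SEL201 (adjusted p = 0.00213), 1.72-fold with OTX015 and 2.17-fold with COMBO (adjusted p = 3.96e-08). HES1 itself, the main Notch-responsive repressor, had 0.07 with COMBO and did not pass (adjusted p = 0.451), nor did HEY1 (-0.24, adjusted p = 0.0835, or 0.00481 with the block).

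HES2 fell with SEL201 (-0.585 ± 0.12, adjusted p = 0.00275) and COMBO (-0.98 ± 0.12, adjusted p = 6.65e-06), HES4 fell with COMBO (-0.81), and TCF15, a somite factor and the member with the lowest counts, fell from 7.08, 7.43 and 7.69 CPM in UNTREATED to 2.89, 4.44 and 2.38 in COMBO (adjusted p = 0.000836). BHLHE40 (-0.46 ± 0.13) and BHLHE41 (-0.47 ± 0.125), repressors in the clock, fell with COMBO. BHLHB9 (0.05) is named by an old symbol and is not a bHLH factor. Of 26 Notch pathway genes, 15 were measured, and 2 rose and 7 fell with COMBO: the ligand gene JAG2 rose (0.96 ± 0.14), and LFNG, which modifies Notch receptors (-0.93 ± 0.094), DTX3 (-0.47) and DTX4 (-0.56) fell. Of 18 bHLH partners and inhibitors, 8 were measured, and 4 rose and 1 fell. ID2 (1.57 ± 0.12) and ID4 (2.06 ± 0.19), which sequester bHLH activators, and MXD4 (0.63 ± 0.052) and MXD1 (0.49), which compete for MAX, rose with COMBO. Of 16 clock genes, 10 were measured, and 5 rose and 2 fell: NFIL3 (0.74 ± 0.072), PER1 (0.46) and ARNTL (0.385) rose, and PER2 (-0.58 ± 0.076) fell.

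TEAD factors are the DNA-binding partners of YAP and TAZ, the effectors of the Hippo pathway, and both measured TEAD genes fell. TEAD2 read 93.2, 91.6 and 73.1 CPM in UNTREATED, 60.4, 67.8 and 54.2 in SEL201, 40, 41.1 and 28 in OTX015 and 24.6, 26.4 and 21.4 in COMBO. The 4 groups did not overlap, and the number 3 library was the lowest of each group. TEAD2 was 2.37-fold lower with OTX015 (adjusted p = 7.06e-06) and 3.55-fold with COMBO (log2 change -1.83 ± 0.145, adjusted p = 1.15e-07). Its fall with SEL201 (-0.50, adjusted p = 0.0188) did not pass without UNTREATED replicate 1 (0.0741), UNTREATED replicate 2 (0.0698), SEL201 replicate 1 (0.0601) or SEL201 replicate 3 (0.0692). TEAD3 fell from 80.8, 89.2 and 79.8 CPM in UNTREATED to 50.9, 53.3 and 45.7 in COMBO (1.66-fold, adjusted p = 4.34e-05). Of 22 TEAD cofactors, Hippo kinases and targets, 9 were measured, and 6 fell and 2 rose with COMBO. The targets ANKRD1 (-2.07 ± 0.22) and AJUBA (-1.44 ± 0.16) and the kinase gene LATS2 (-0.62 ± 0.097) fell, and STK3, another Hippo kinase (0.21 ± 0.043), rose. CYR61, another target, fell too (-0.82 ± 0.20, adjusted p = 0.00289). CTGF, also a YAP target, had -0.14 and did not pass (adjusted p = 0.521, or 0.0026 with the block).

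The remaining families had 1 or 2 measured members each. TCF7L1, a repressor at the end of Wnt signalling, rose by 0.56 ± 0.12 with COMBO (adjusted p = 0.0012) and 0.42 with OTX015, from 11.1, 11.1 and 11 CPM in UNTREATED to 17.4, 17.1 and 14.2 in COMBO, and TCF7 (0.07) did not pass. Of 15 genes that read or oppose TCF7 factors in Wnt signalling, 7 were measured, and 5 rose and 2 fell with COMBO: LGR4 (0.44 ± 0.057), a Wnt-enhancing receptor, and the feedback inhibitors NKD1 (0.52) and AXIN2 (0.49) rose, and PYGO1 (-0.53 ± 0.082), a beta-catenin coactivator, and NKD2 (-0.65 ± 0.23), the paralogue of NKD1, fell. MEF2C, a factor of muscle and neural crest derivatives, rose from 52.4, 47.5 and 43.8 CPM in UNTREATED to 68.2, 64.7 and 58.3 in COMBO (1.33-fold, adjusted p = 0.000621) and by 1.34-fold with OTX015. NFIA, a factor of glia, had -0.35 with COMBO (adjusted p = 0.0567), which passed with the replicate block (0.000815), with DESeq2 (0.0337), in a fit of only the compared groups (0.0204), and without the number 3 libraries (0.00537) or UNTREATED replicate 3 (0.0249). RUNX2, of bone (-0.28, adjusted p = 0.112), and RUNX1T1, a corepressor that is not a DNA-binding RUNX factor (0.20, adjusted p = 0.118), passed with COMBO only with the replicate block (0.00979 and 0.0354) or, for RUNX2, without the number 3 libraries (0.0342) or UNTREATED replicate 3 (0.0307).

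Whether OTX015 changed these genes in cells that also received SEL201 was read from COMBO against SEL201. In this comparison 58 members fell and 16 rose, or 42.6% and 11.8%, against 21.2% and 18.8% of all genes. OTX015 against UNTREATED and COMBO against SEL201 share no library. Their calls are not independent, because each gene's spread was estimated over all 12 libraries and same-numbered libraries deviated together. Of the 67 members that fell with OTX015 alone, 52 (77.6%) also fell in COMBO against SEL201, which is 89.7% of the 58. For the rises, 14 were shared, 73.7% of 19 and 87.5% of 16, and no member passed in opposite directions. The same overlap was not counted over all genes, so whether it is particular to the members was not tested. The 5 largest rises on top of SEL201 were those of HEY2 (1.125 ± 0.15), LMO2 (1.08 ± 0.065), HES6 (0.70 ± 0.079), POU3F1 (0.66 ± 0.18) and RORB (0.50 ± 0.050). The 5 largest falls were those of LHX8 (-1.56 ± 0.12), TEAD2 (-1.33 ± 0.145), HOXC11 (-1.19 ± 0.14), HOXB9 (-1.15 ± 0.12) and TCF15 (-1.13 ± 0.245). Of the HOX genes, 25 of 30 fell and none rose, by edgeR, DESeq2 or at an unadjusted p under 0.05.

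**Figure D4:**
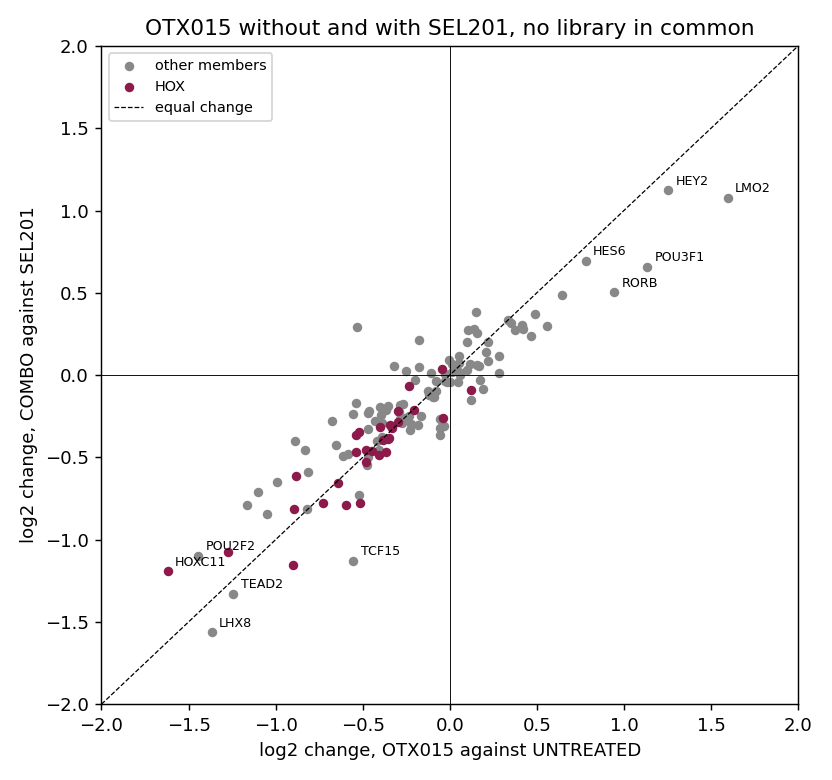
Log2 change of each of the 136 genes with OTX015 against UNTREATED (x axis) and with COMBO against SEL201 (y axis), with HOX genes in dark red and a dashed line of equal change. The 2 comparisons share no library; LMO2 lies at 1.60 and 1.08, LHX8 at -1.37 and -1.56.

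Whether SEL201 changed them in cells that also received OTX015 was read from COMBO against OTX015. Here 15 members fell and 3 rose, or 11% and 2.21%, against 4.01% and 2.9% of all genes, and with the replicate block 34 fell and 10 rose, against 12.2% and 10% of all genes. SEL201 against UNTREATED shares no library with this comparison, but for the same reasons its calls are not independent of those in COMBO against OTX015. Of its 29 falls, 13 (44.8%) were among the 15 (86.7%), and of its 11 rises 2 (18.2%) were among the 3 (66.7%). No member passed in opposite directions, and this overlap too was not counted over all genes. The 5 largest falls were in HOXB8 (-0.82 ± 0.17, adjusted p = 0.0116), HOXB9 (-0.635 ± 0.12, 0.00767), TEAD2 (-0.585 ± 0.15, 0.0296), KLF7 (-0.44 ± 0.11, 0.0293) and FOXF2 (-0.37 ± 0.073, 0.00805). The 3 rises were in PAX6 (0.46 ± 0.115, 0.0295), HES6 (0.33 ± 0.078, 0.0211) and RORB (0.26 ± 0.050, 0.00681). Of the HOX genes 8 fell, or 15 with the block and 5 without OTX015 replicate 2, and none rose by edgeR, DESeq2 or at an unadjusted p under 0.05. All genes were not counted in the fit without OTX015 replicate 2.

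Several of these calls were lost when 1 library was left out. HOXB8 did not pass without OTX015 replicate 2 (-0.687, adjusted p = 0.0559). TEAD2 did not pass without OTX015 replicate 1 or 2 (0.107 and 0.116) or COMBO replicate 1 or 3 (0.0779 and 0.0979). KLF7 did not pass without OTX015 replicate 2 or 3 (0.0656 and 0.108) or COMBO replicate 1 or 2 (0.109 and 0.0865). HES6 did not pass without OTX015 replicate 1 or 3 (0.0671 and 0.0698) or COMBO replicate 1 or 2 (0.0564 and 0.0706). PAX6 did not pass without any 1 OTX015 library (0.0534 to 0.104) or COMBO replicate 1 or 2 (0.0856 and 0.0941). HOXB9, FOXF2 and RORB passed in each of these fits.

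The interaction asks whether COMBO departs from what SEL201 and OTX015 add up to, as log2 changes; a value below 0 means that COMBO lies below that sum. It passed for 2 members, both below 0, and for none above 0 by edgeR or DESeq2, against 0.0699% and 0.21% of all genes. At an unadjusted p under 0.05 there were 6 members below and 8 above 0. All genes were not counted at that threshold, so these 2 counts have no share to stand beside. For RORB the single-agent changes of 0.70 and 0.945 were followed by 1.205 with both, an interaction of -0.44 ± 0.071 (adjusted p = 0.0221). For LMO2 the values were 0.48, 1.60 and 1.555, an interaction of -0.52 ± 0.091 (adjusted p = 0.0326). Both rises with both agents were thus smaller than the sum. The LMO2 call was lost without 11 of the 12 libraries, all but SEL201 replicate 1 (adjusted p 0.0609 to 0.0986). The RORB call was lost without UNTREATED replicate 2 (0.0663), SEL201 replicate 1 or 2 (0.0669 and 0.0809), OTX015 replicate 1 (0.0743), or COMBO replicate 1 or 2 (0.0617 and 0.0738). With the replicate block 9 members passed, 4 below 0 and 5 above 0, where 2.73% and 4.02% of all genes did: RORB (adjusted p = 2.45e-06), LMO2 (3.08e-05), GATA4 and POU3F2 below 0, and FOXC2, HES2, KLF3, KLF7 and NR2F1 above 0, the last 7 with adjusted p from 0.0219 to 0.049.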

How the data were processed

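Raw counts, as the authors deposited them, are in 1 table with a row for each gene and 12 library columns. The submitters' processing notes name STAR 2.5.4b, featureCounts and SAMtools 1.9, as well as Trimmomatic, FastQC, DESeq2 and the build hg19, without roles. Gene annotation, strand setting and gene selection were not given in the sources used here. Mean counts of the 8579 genes run only from 78.67 to 9158.7, so library totals (15146071 to 24111541) are over these genes, CPM is relative to them, and the scaling removes a change that most of them share. No column belonged to other samples (0).

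The count test was edgeR 4.0.16 under R 4.3.3 (filterByExpr, TMM, glmQLFit and glmQLFTest, group means of all 12 libraries, Benjamini-Hochberg over 8579 genes, adjusted p under 0.05) in 6 contrasts. The SE was taken as the size of the log2 change over the root of edgeR's F statistic. The steps were tested on simulated data. The alternatives tried were DESeq2 1.42.0, RLE scaling, no filter, at least 10 CPM in 3 libraries, only the compared groups, each library left out, the number 3 libraries left out, and the replicate block.

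Named are the 10 largest rises and falls against UNTREATED, the 5 largest against a single agent, every interaction call, the neural crest, RAR, RXR, ROR, TEAD, RUNX, NFI, ZEB, MEF2 and PBX members whatever their p, and up to 4 genes per related list; other genes named were chosen after their values were seen. A few genes are not reported here by name. Members and lists were chosen with earlier results of these data known.

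No 2 libraries of a group agreed within sampling noise (chi-square per degree of freedom 6.34 or more). Same-numbered libraries deviated from their group means together: r across genes was 0.26 to 0.57 for the 18 pairs with the same number and -0.46 to 0.19 for the 36 pairs with different numbers, and each of the 12 libraries was most like those of its own number. This pairing comes from the data and not the labels. Because deviations from a group mean cancel within each group, the lower values for different numbers are not separate evidence for the pairing. With the block, edgeR's biological coefficient of variation was 4.35%, against 7.92% without. Blocked values stand beside some of the results whose call they change, not all. Promoter windows were searched in Python 3.11.15.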

Additional observations from a re-analysis of the deposited data

Results flagged for a closer look

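The interaction of SEL201 and OTX015 differed from 0 for 2 members by the test of the interaction itself. It was -0.517 for LMO2 and -0.441 for RORB on the log2 scale, so the effect of either agent on these genes was smaller in the presence of the other.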

How the results depend on the processing

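Over the alternatives, 314 calls of members in the 6 comparisons gave 4082 values, of which 3777 kept direction and side of the threshold, 305 (in 83 of the calls) kept direction but did not pass, and none changed direction. The replicate block ended none of these calls. With RLE or DESeq2 scaling the median change of all genes lay between -0.003 and 0.006 over the 6 comparisons, and with TMM between -0.006 and 0.002. In a comparison with the replicate block, that is with the pairing by number in the model, 70 members passed for SEL201 against UNTREATED (40 without), 44 for COMBO against OTX015 (18 without) and 9 for the interaction (2 without). The shares of all genes called grew with the block too, to 19.1% lower and 18% higher, 12.2% and 10%, and 2.73% and 4.02%. Leaving out 1 library gave 10 to 15 members for COMBO against OTX015 and 0 to 1 for the interaction. Leaving out the number 3 libraries gave 1 for the interaction. These fits hold fewer samples, and all genes were not counted in them, so their counts have no share to stand beside. Of 8 genes that did not pass with COMBO against UNTREATED and were followed through the alternatives, 2 changed sign: leaving out 1 library gave -0.009 to 0.244 for SOX9 (below 0 without UNTREATED replicate 1) and -0.008 to 0.083 for ZEB2 (below 0 without COMBO replicate 3), and ZEB2 read -0.041 without the number 3 libraries. HOXA13 was also below 0 without UNTREATED replicate 1 or COMBO replicate 2, where all 30 HOX genes were. The cause was not tested. Depth limits members with few counts, such as TCF15 (36 in its lowest library), and genes outside the table's range of levels were not analysed here.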
